A study of Caenorhabditis elegans with 8 samples.

Results

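The genes described are the 6 vitellogenins of Caenorhabditis elegans (vit-1 to vit-6), the yolk receptor gene rme-2 and the transcription factor genes ceh-60 and unc-62. They were found by their WormBase symbols in the deposited counts, where all 9 were present among 46739 listed genes, and all 9 passed the filter on low counts with 12021 tested genes in all. Whole worms of 1 strain were sequenced in 8 libraries, 4 of worms treated with 5-Ph-IAA and 4 of worms treated with ethanol. All 8 libraries share the genotype given as neuronal DAF-15 AID, meaning an auxin-inducible degron that targets DAF-15, the worm Raptor of the TORC1 kinase complex, in neurons. 5-Ph-IAA is the auxin analog that triggers degradation and ethanol the control. Treatment ran for 24 h from the L4 larval stage, and RNA was taken on day 1 of adulthood. The labels do not name the promoter behind the neuronal restriction, and no group lacks the degron, so effects of 5-Ph-IAA itself and of DAF-15 loss cannot be told apart. Whether replicates were separate cultures is not stated, and the spread behind the p-values may be technical.

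Vitellogenins are large lipoproteins that adult hermaphrodites make in the intestine, release into the body cavity and load into oocytes as yolk. The receptor RME-2, of the low-density lipoprotein receptor family, takes yolk up at the oocyte surface by clathrin-mediated endocytosis. Transcription of vit genes begins around the last moult and needs intestinal GATA factors together with the homeodomain proteins UNC-62 (of the Meis class) and CEH-60 (of the PBC class). The YP170 yolk proteins are the products of vit-2, to which vit-1 is closely related, and of the related genes vit-3, vit-4 and vit-5. The product of vit-6 is cut into the smaller yolk proteins YP115 and YP88.

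Yolk genes took a large part of each library, and their share did not differ between the groups by more than the spread between libraries. The 6 vitellogenins together held 7.48%, 7.57%, 7.95% and 7.99% of gene reads in 5-Ph-IAA replicates 1 to 4. In ethanol replicates 1 to 4 they held 7.99%, 6.58%, 7.91% and 8.37%. The groups overlapped, and the lowest and the highest share both belonged to ethanol libraries. The mean share was 7.75% ± 0.261 with 5-Ph-IAA and 7.71% ± 0.780 with ethanol (SD, n = 4 each), a difference of 0.0343 percentage points. Differences between libraries of the same number (5-Ph-IAA minus ethanol) were -0.509, 0.987, 0.0402 and -0.381 points, higher in 2 of 4 pairs. With 7354710 to 10893322 gene reads per library, the 95% Wilson interval of a share was at most 0.0392 points wide, so counting error was small beside the spread between libraries. These intervals cover counting error only.

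**Figure D1:**
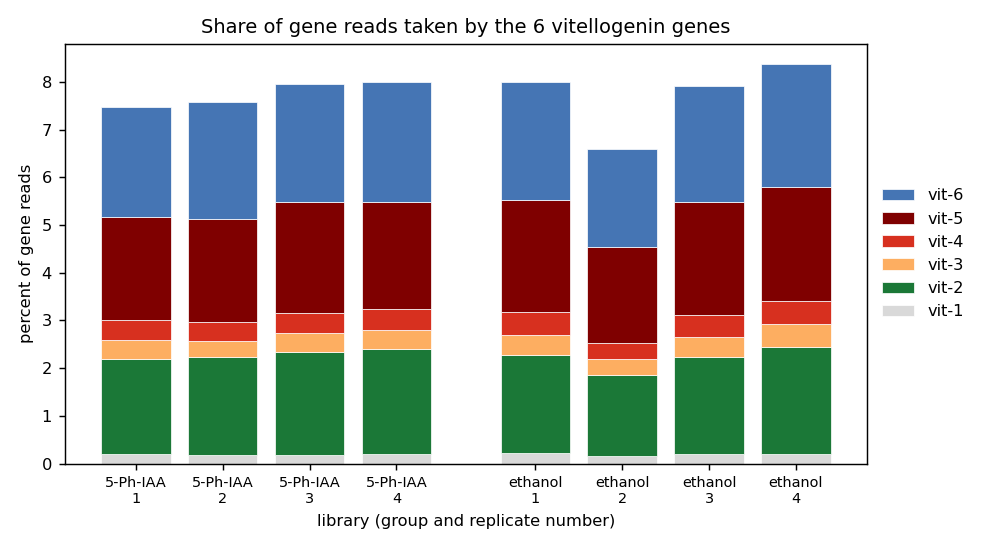
Stacked bars give the percent of gene reads (vertical axis) that each vitellogenin gene held in each of the 8 libraries (horizontal axis), 5-Ph-IAA left and ethanol right. Totals lie between 7.48% and 7.99% with 5-Ph-IAA and between 6.58% and 8.37% with ethanol, where replicate 2 is the lowest of all libraries.

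None of the 9 genes passed the test for a difference between 5-Ph-IAA and ethanol. edgeR's quasi-likelihood test at an adjusted p under 0.05 called 0 of 9, against 12 of 12021 tested genes, or 0.0998%. With the replicate number as a block it again called 0 of 9, against 88 of 12021, or 0.732%. At an unadjusted p under 0.05 there were 0 of 9 without and with the block (4.41% and 6.91% of all tested genes). DESeq2 called 0 of 9, against 29 of 12021 tested genes, and limma-voom 0 of 9, against 13 of 12021. The CPM (counts scaled to library sizes corrected with TMM factors) of the groups overlapped for all 9 genes, while 318 tested genes, or 2.65%, had groups that did not overlap. Fold changes given below are 5-Ph-IAA over ethanol with 95% intervals from that test without the block, in which every member had an adjusted p of 0.999. That fit leaves out the pairing by replicate number. With the block every interval was narrower and still included equal levels. Blocked intervals were 0.937 to 1.08 for vit-1, 0.966 to 1.12 for vit-2 and 0.890 to 1.02 for vit-3. They were 0.890 to 1.04 for vit-4, 0.906 to 1.04 for vit-5 and 0.947 to 1.10 for vit-6. For rme-2, ceh-60 and unc-62 they were 0.950 to 1.08, 0.994 to 1.47 and 0.834 to 1.04.

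**Figure D2:**
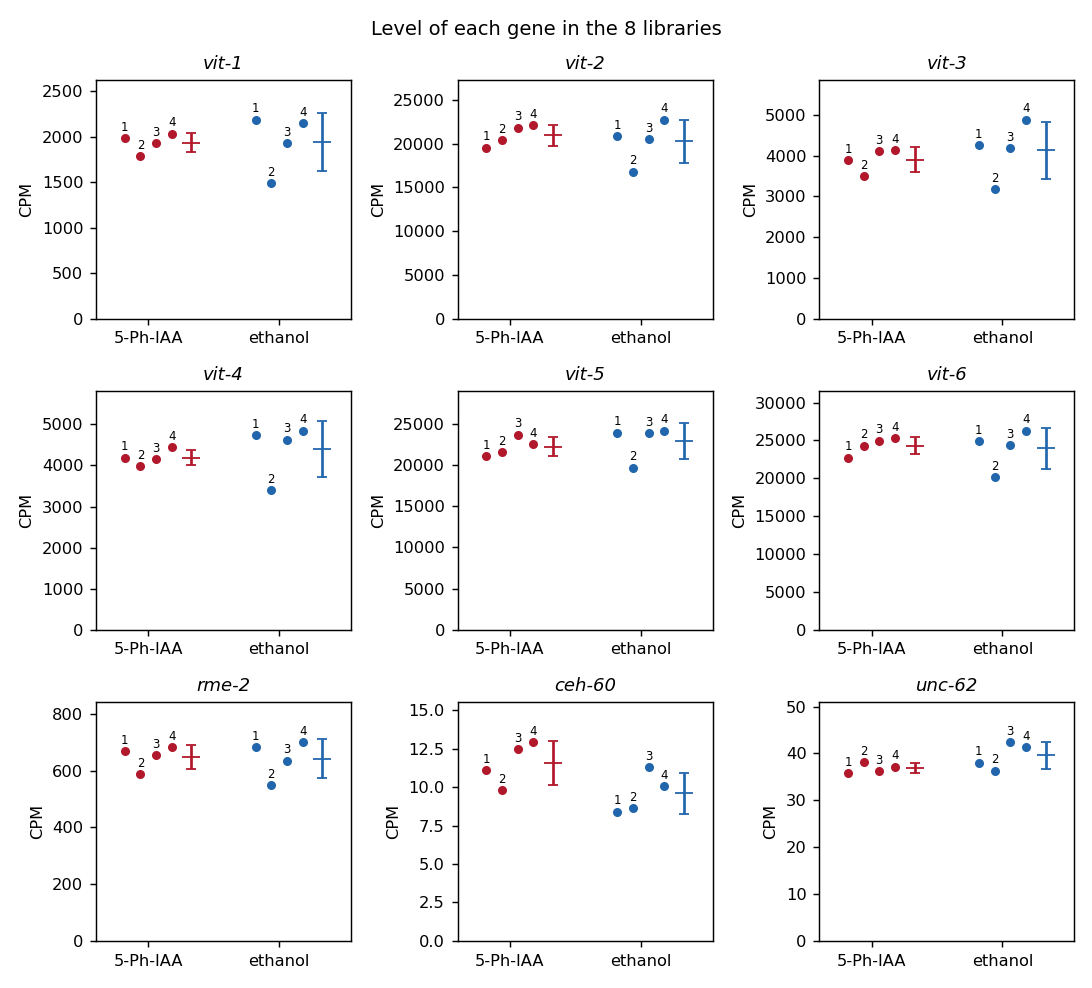
Each panel plots the CPM of 1 gene (vertical axis, from 0) in the 4 libraries of worms given 5-Ph-IAA (left, red) and the 4 given ethanol (right, blue), with replicate numbers above the points and mean ± SD beside them. The groups overlap in every panel, and ethanol replicate 2 is the lowest library for each vitellogenin and for rme-2.

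The gene with the most reads in these worms was vit-6, the single vitellogenin gene outside the X chromosome (WBGene00006930, IV: 8261157 to 8266459, plus strand, 5 exons). It stood at 22735, 24325, 24982 and 25265 CPM with 5-Ph-IAA, and at 24913, 20154, 24411 and 26293 CPM with ethanol. The ethanol libraries spanned a wider range than the 5-Ph-IAA libraries and enclosed it. The fold change was 1.02 (95% interval 0.923 to 1.12), with a log2 value of 0.023 (SE 0.0667, edgeR adjusted p = 0.999).

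The next highest CPM was that of vit-5 (WBGene00006929, X: 3403471 to 3408603, plus strand), a YP170 gene. Its levels were 21111, 21538, 23681 and 22541 CPM with 5-Ph-IAA, and 23919, 19684, 23837 and 24160 CPM with ethanol. Of the ethanol libraries 3 lay above every 5-Ph-IAA library and the fourth, replicate 2, below all of them. The fold change was 0.970 (95% interval 0.887 to 1.06).

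Next came vit-2 (WBGene00006926, X: 5101042 to 5106169, plus strand), a YP170 gene often tagged to follow yolk in live worms. It had 19541, 20404, 21826 and 22077 CPM with 5-Ph-IAA, and 20898, 16813, 20557 and 22752 CPM with ethanol. Here too the ethanol range enclosed that of 5-Ph-IAA, and the fold change was 1.03 (95% interval 0.929 to 1.15). Together vit-2, vit-5 and vit-6 held 6.74% ± 0.241 of gene reads with 5-Ph-IAA and 6.67% ± 0.627 with ethanol (SD, n = 4 each).

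The genes vit-4 and vit-3, related to vit-5, were scarcer and lie on the minus strand of X, 3389 bases from each other. They are far from vit-5 on the map (150165 bases between vit-5 and vit-4). vit-4 (WBGene00006928, X: 3558769 to 3563965) had 4188, 3992, 4147 and 4441 CPM with 5-Ph-IAA, and 4731, 3391, 4630 and 4846 CPM with ethanol. As for vit-5, ethanol replicates 1, 3 and 4 were above all 5-Ph-IAA libraries and ethanol replicate 2 was below them. vit-3 (WBGene00006927, X: 3567355 to 3572549) had 3888, 3490, 4109 and 4126 CPM with 5-Ph-IAA, and 4265, 3180, 4183 and 4885 CPM with ethanol, in the same arrangement. Fold changes were 0.953 for vit-4 (95% interval 0.813 to 1.12) and 0.945 for vit-3 (95% interval 0.769 to 1.16).

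The least abundant of the family was vit-1 (WBGene00006925, X: 7727889 to 7733168, plus strand). Its levels were 1988, 1791, 1931 and 2034 CPM with 5-Ph-IAA, and 2189, 1492, 1933 and 2151 CPM with ethanol. The means of 1936 ± 105 CPM with 5-Ph-IAA and 1941 ± 320 CPM with ethanol (SD, n = 4 each) gave a fold change of 0.997 (95% interval 0.828 to 1.201). Over the family 2 genes had a log2 fold change above 0 (vit-2 and vit-6) and 4 below, from -0.081 to 0.050 with a median of -0.024, against a median of -0.00094 over all tested genes.

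**Figure D3:**
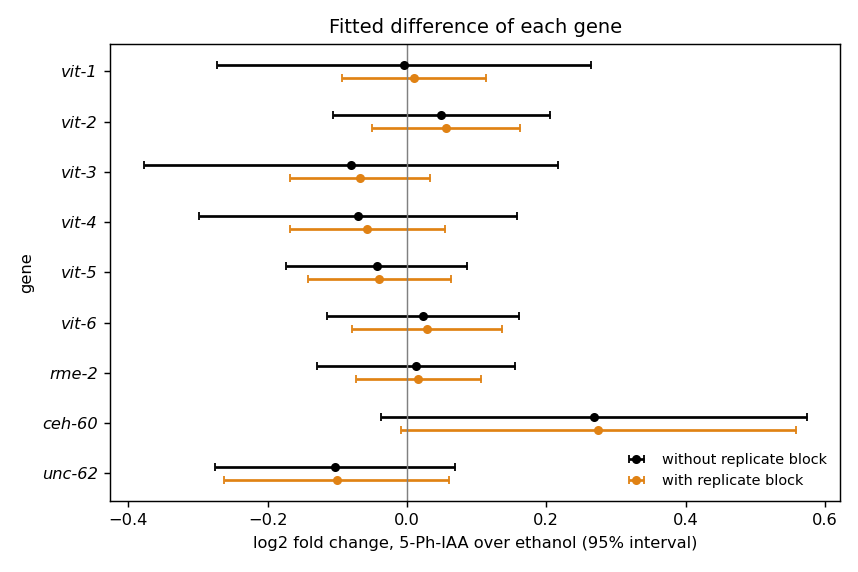
Points give the fitted log2 fold change (horizontal axis, 5-Ph-IAA over ethanol) of each gene (vertical axis) and bars its 95% interval, in black without and in orange with the replicate number as a block. Every interval includes 0, and those of ceh-60 (log2 0.27 without the block) are the widest.

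Ethanol replicate 2 stood apart in yolk transcripts, though not in these alone. All 6 vitellogenins lay below their group mean there, by a median of 0.31 on the log2 scale, whereas none did in ethanol replicates 1, 3 and 4. In the 5-Ph-IAA group 5 of 6 lay below the mean in replicate 1, 5 in replicate 2, 2 in replicate 3 and 0 in replicate 4, with medians between -0.056 and 0.075. The coefficient of variation of the vitellogenins was 9.38% to 17.1% among ethanol libraries and 4.44% to 7.59% among 5-Ph-IAA libraries, and 0.699% to 8.64% among the ethanol libraries other than replicate 2. Without ethanol replicate 2 all 6 had a log2 fold change below 0, from -0.19 for vit-3 and -0.18 for vit-4 to -0.030 for vit-2, and 3 of the 9 members (vit-3, vit-4 and vit-5) had an unadjusted p under 0.05, as did 538 of 12124 tested genes, or 4.44%. The library left out was chosen after it was seen to be low in these genes, so this count is a description. None passed over all tested genes (edgeR adjusted p = 0.808 for vit-3, 0.424 for vit-4 and 1.00 for vit-5). The markers of the intestine summed to 5017 CPM in ethanol replicate 2 and to 5296, 5434 and 5328 CPM in ethanol replicates 1, 3 and 4, and to 4884 to 5177 CPM with 5-Ph-IAA. Oocyte and eggshell genes summed to 12231 CPM there, beside 13221, 12163 and 13375 CPM in those 3 and 12813 to 13099 CPM with 5-Ph-IAA. The endocytosis genes described below summed to 2626 CPM in ethanol replicate 2, beside 2764 to 2781 CPM in ethanol replicates 1, 3 and 4. Among them chc-1 had 352.5 CPM beside 417 to 435 CPM. Genes that assemble or export yolk were not lowest there, with a sum of 3508 CPM beside 3630, 3415 and 3623 CPM. The part of these genes in the low yolk values was not tested. Whole-worm RNA cannot tell a smaller share of intestinal tissue from less vit RNA per intestinal cell.

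Per length of transcript the family fell into 3 tiers. Levels per kilobase of annotated exon averaged 4804 ± 224 CPM per kb for vit-6, 4562 ± 235.07 for vit-5 and 4249 ± 243 for vit-2 with 5-Ph-IAA. With ethanol they averaged 4728 ± 523 CPM per kb for vit-6, 4702 ± 441 for vit-5 and 4105 ± 504 for vit-2 (SD, n = 4 each). On this scale the 3 genes ranked 4, 5 and 8 among 19664 protein-coding genes. The level of vit-6 was above that of vit-5 in 6 of 8 libraries with a mean ratio of 1.03, so their order did not hold beyond the spread. That of vit-5 was above vit-2 in 8 of 8 libraries, although their ranges overlapped. The middle tier held vit-4 (849 ± 37.7 CPM per kb with 5-Ph-IAA and 891 ± 137 with ethanol) and vit-3 (793 ± 60.1 with 5-Ph-IAA and 838 ± 143 with ethanol), in that order in 7 of 8 libraries with overlapping ranges. A wide step separated vit-2 from vit-4, 4.42-fold to 5.27-fold within a library, and another separated vit-3 from vit-1, 2.01-fold to 2.35-fold. The lowest, vit-1, had 381 ± 20.7 CPM per kb with 5-Ph-IAA and 382 ± 62.9 with ethanol. Related vit genes share long stretches of sequence, and reads with more than 1 alignment, 4.14% to 4.55% of all reads in a file, stood in no gene, so the levels of vit-3, vit-4 and vit-5, and of vit-1 and vit-2, relative to each other are uncertain. The counts of vit-3 and vit-4 summed to 1 row gave a log2 fold change of -0.075 (SE 0.1099), and with vit-5 added -0.052 (SE 0.0672), both with an edgeR adjusted p of 0.999.

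The abundant genes vit-2, vit-5 and vit-6 each held a similar part of the yolk reads in every library. Shares of the scarcer genes varied more for their size. vit-3 held 4.62% to 5.29% with 5-Ph-IAA and 4.91% to 5.74% with ethanol. For vit-4 these ranges were 5.14% to 5.70% and 5.24% to 5.85%, and for vit-1 they were 2.37% to 2.71% and 2.31% to 2.71%. vit-2 held 26.60%, 27.01%, 27.05% and 27.43% of vitellogenin reads with 5-Ph-IAA and 25.83%, 25.98%, 25.84% and 26.74% with ethanol. vit-6 held 30.95%, 32.20%, 30.97% and 31.39% with 5-Ph-IAA and 30.79%, 31.14%, 30.69% and 30.90% with ethanol. Both shares were higher with 5-Ph-IAA in 4 of 4 numbered pairs, with groups that overlapped. The share of vit-5 was 28.74%, 28.51%, 29.35% and 28.01% with 5-Ph-IAA and 29.56%, 30.42%, 29.97% and 28.39% with ethanol, lower in 4 of 4 pairs. The related genes vit-3, vit-4 and vit-5 together made up 39.7%, 38.4%, 39.6% and 38.7% with 5-Ph-IAA and 40.7%, 40.6%, 41.0% and 39.8% with ethanol. This was the only share of the 7 computed whose groups did not overlap, by 0.0937 points, and it is given as a description with no test, since the shares of 1 library sum to a whole and the sum was chosen among members. Of the 15 ratios between 2 single vitellogenins 0 had groups that did not overlap, beside 1.72% of 5886 such ratios among the 109 genes of at least 1000 CPM.

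**Figure D4:**
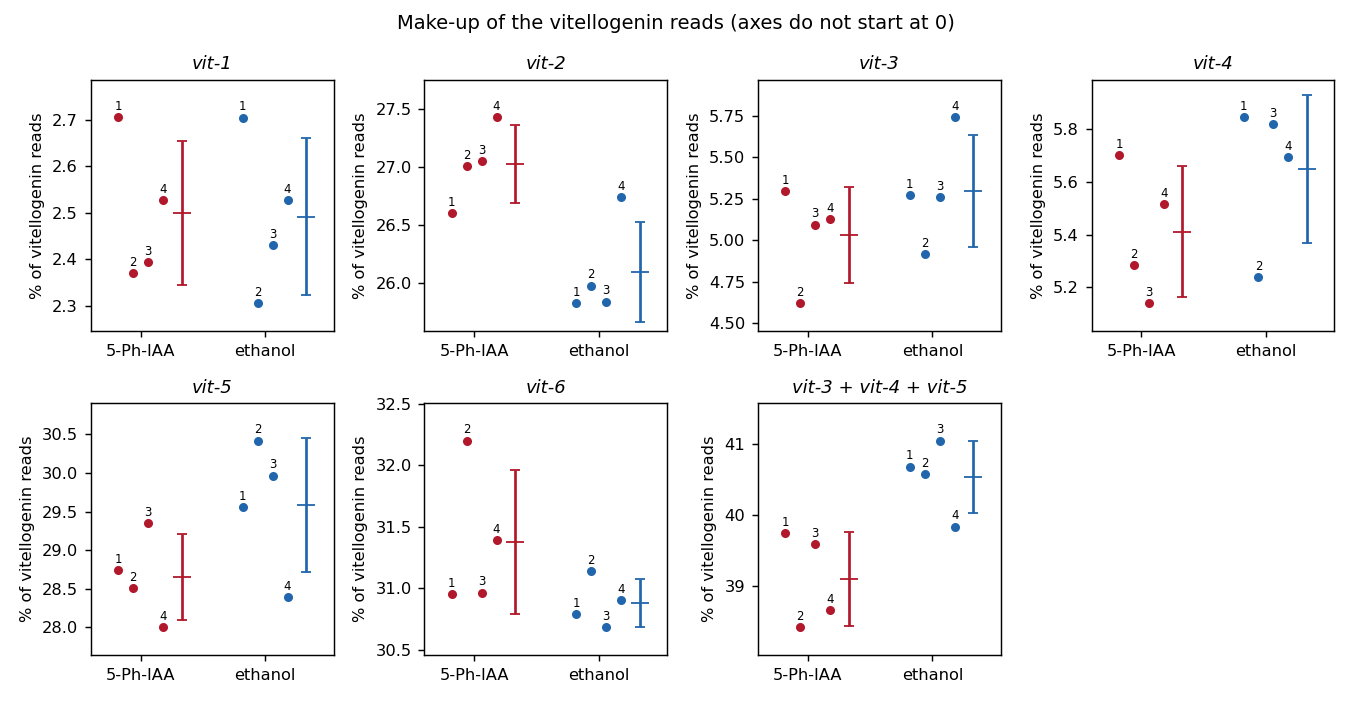
Each panel plots the percent of vitellogenin reads (vertical axis, not from 0) held by 1 gene, or by vit-3, vit-4 and vit-5 together, in the 5-Ph-IAA libraries (left) and the ethanol libraries (right), with replicate numbers and mean ± SD. The summed genes vit-3, vit-4 and vit-5 lie between 38.4% and 39.7% with 5-Ph-IAA and between 39.8% and 41.0% with ethanol.

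Reads were also counted on the other strand of vit-3 and vit-4. Annotated noncoding RNA (ncRNA) genes lie there, T27A10.8 (WBGene00197773, X: 3572379 to 3572566, plus strand) with 171 of its 188 bases over exons of vit-3, and F59D8.3 (WBGene00196684, X: 3563816 to 3563991, plus strand) with 150 of its 176 bases over exons of vit-4. T27A10.8 had 349, 304, 315 and 363 CPM with 5-Ph-IAA, and 358, 171, 313 and 382 CPM with ethanol. Ethanol replicate 2, the lowest for vit-3, was the lowest here as well. F59D8.3 had 411, 375, 388 and 122 CPM with 5-Ph-IAA, and 395, 315, 378 and 416 CPM with ethanol. Its low value in 5-Ph-IAA replicate 4 was not shared by vit-4, which had its highest level of that group in the same library. Neither ncRNA passed the test (log2 fold change 0.12, SE 0.250, for T27A10.8 and -0.22, SE 0.374, for F59D8.3, edgeR adjusted p = 0.999 for each), and without 5-Ph-IAA replicate 4 the value of F59D8.3 was 0.055 (SE 0.0753). Reads of T27A10.8 numbered between 5.37% and 8.98% of those of vit-3 and reads of F59D8.3 between 2.75% and 9.81% of those of vit-4. The strand setting of the counting is not given in the sources used here, so reads of these ncRNAs and reads of vit-3 or vit-4 cannot be told apart with certainty. Adding them to the vit genes left log2 fold changes of -0.066 (SE 0.134) for vit-3 and -0.081 (SE 0.0927) for vit-4 (edgeR adjusted p = 0.999 for each).

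**Figure D5:**
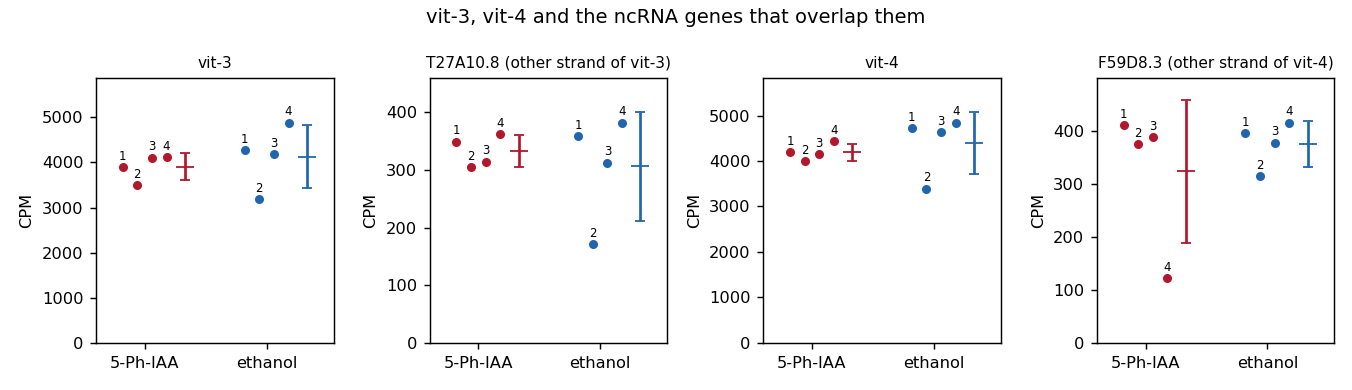
CPM (vertical axes, from 0) of vit-3, of T27A10.8 on its other strand, of vit-4 and of F59D8.3 on its other strand, in the 5-Ph-IAA libraries (left in each panel) and the ethanol libraries (right), with replicate numbers and mean ± SD. F59D8.3 is at 122 CPM in 5-Ph-IAA replicate 4 and between 315 and 416 CPM in the other 7 libraries, while vit-4 shows no such drop.

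The receptor gene rme-2 (WBGene00004374, IV: 5470026 to 5473174, plus strand) averaged 649 ± 42.2 CPM with 5-Ph-IAA and 643 ± 68.2 CPM with ethanol (SD, n = 4 each). By library it had 669, 588, 656 and 683 CPM with 5-Ph-IAA, and 685, 550, 636 and 702 CPM with ethanol. The ethanol range enclosed the 5-Ph-IAA range, and the fold change was 1.01 (95% interval 0.914 to 1.11). Per kilobase rme-2 averaged 226 ± 14.7 CPM per kb with 5-Ph-IAA and 224 ± 23.8 with ethanol (SD, n = 4 each), rank 480 of 19664 protein-coding genes.

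The yolk regulator ceh-60 (WBGene00017690, X: 6522596 to 6530146, minus strand) was scarce, with 61 to 118 reads per library. It had 11.13, 9.79, 12.5 and 12.9 CPM with 5-Ph-IAA, and 8.404, 8.63, 11.3 and 10.1 CPM with ethanol. Levels were higher with 5-Ph-IAA in 4 of 4 numbered pairs, which was true of 7.17% of tested genes, while the groups overlapped. The fold change of 1.205 (95% interval 0.975 to 1.49, unadjusted p = 0.0823, edgeR adjusted p = 0.999) was the largest of the 9 members. With the replicate block it was 1.21 (edgeR adjusted p = 0.742). The last 72 bases of ceh-60 overlap exons of ets-4, a gene on the other strand with 233 to 366 reads per library, so reads there are uncertain.

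Its partner unc-62 (WBGene00006796, V: 4497461 to 4511449, plus strand, 18 annotated transcripts) had 35.8, 38.1, 36.3 and 37.2 CPM with 5-Ph-IAA, and 38.02, 36.3, 42.5 and 41.4 CPM with ethanol. Levels were lower with 5-Ph-IAA in 3 of 4 pairs, with a fold change of 0.931 (95% interval 0.826 to 1.05). This gene is used in many tissues, and counts per gene do not separate its isoforms. Per kilobase the regulators were far below the genes they act on, at 8.70 ± 1.07 CPM per kb for ceh-60 and 5.81 ± 0.162 for unc-62 with 5-Ph-IAA, and 7.21 ± 1.01 for ceh-60 and 6.24 ± 0.452 for unc-62 with ethanol (SD, n = 4 each).

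Other genes tied to vit transcription were listed for comparison, among them the intestinal GATA factors elt-2 and elt-7, timing genes such as lin-14 and lin-29, and the DBL-1 pathway. Of 23 listed genes 22 were tested and 0 passed in either fit. At an unadjusted p under 0.05 there were 2 without the block and 1 with it (4.41% and 6.91% of all tested genes). Their median log2 fold change was 0.013, with 12 above 0 and 10 below. The lowest log2 value of the list, -0.44, belonged to a gene below 10 CPM and was also the lowest among the intestinal markers. In 1 gene of the list the groups did not overlap, as in 2.65% of tested genes. The largest differences among those of at least 10 CPM were in pqm-1 and sma-6. pqm-1, a zinc finger factor that opposes DAF-16, had 32.9 ± 6.66 CPM with 5-Ph-IAA and 40.1 ± 5.93 CPM with ethanol (log2 fold change -0.29, edgeR adjusted p = 0.999, and 0.0980 with the block), lower in 4 of 4 pairs. sma-6, the type I receptor of the DBL-1 pathway, had 15.2 ± 1.27 CPM with 5-Ph-IAA and 12.9 ± 1.74 CPM with ethanol (log2 fold change 0.23, edgeR adjusted p = 0.999).

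No gene that assembles or exports yolk passed the test. Of 16 tested 0 were called in either fit and 0 had an unadjusted p under 0.05, with 12 above 0 and a median log2 value of 0.042. dsc-4, the microsomal triglyceride transfer protein that loads lipid onto lipoproteins, had 40.8 ± 5.35 CPM with 5-Ph-IAA and 37.7 ± 3.71 CPM with ethanol (log2 fold change 0.11, edgeR adjusted p = 0.999). sft-4, a cargo receptor for export of yolk from the endoplasmic reticulum, had 70.6 ± 0.748 CPM with 5-Ph-IAA and 74.6 ± 2.77 CPM with ethanol (log2 fold change -0.078, edgeR adjusted p = 0.999). It was the 1 gene of this list whose groups did not overlap, as in 2.65% of tested genes.

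Of 23 genes of endocytosis 0 passed in either fit (0 at an unadjusted p under 0.05 without the block, 1 with it), with 16 above 0 and a median log2 value of 0.024. The largest differences were in rab-10, a GTPase of endosomal recycling, at 153 ± 6.29 CPM with 5-Ph-IAA and 164 ± 6.65 CPM with ethanol (log2 -0.096), and in cav-1, a caveolin of the germline, at 40.2 ± 3.38 CPM with 5-Ph-IAA and 43.1 ± 4.80 CPM with ethanol (log2 -0.091). The heavy chain of clathrin, chc-1, was among the most abundant of the list, with a log2 fold change of -0.025 (edgeR adjusted p = 0.999 for each of the 3).

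Markers of stage, germline and tissue were listed as a description. Oocyte and eggshell genes were abundant (16 of 16 tested, led by cpg-2 at 2817 CPM with 5-Ph-IAA and 2722 CPM with ethanol), with 0 called, 0 at an unadjusted p under 0.05, and a median log2 value of 0.014. Of 30 sperm genes 1 was tested, msp-31 (not called, 0 at an unadjusted p under 0.05), and the list summed to 10.5 to 17.7 CPM with 5-Ph-IAA and 5.75 to 18.6 CPM with ethanol. Embryo genes summed to 160 to 168 CPM with 5-Ph-IAA and 163 to 176 CPM with ethanol. Most of this sum came from lin-26 (97.4 CPM with 5-Ph-IAA and 100.5 CPM with ethanol) and die-1 (40.9 CPM and 40.7 CPM). Of the embryo genes 7 of 20 were tested, with 0 called, 0 at an unadjusted p under 0.05 and hlh-25 at 0 in every library. Genes of the moult summed to 114 to 134 CPM with 5-Ph-IAA and 107 to 132 CPM with ethanol, with 12 of 22 tested, 0 called, 0 at an unadjusted p under 0.05 and a median log2 value of 0.12. With no filter on low counts all 22 were tested, and the median was 0.46. Of these 22 genes 7 had an unadjusted p under 0.05, a larger part than the 4.31% of all genes then tested. The 1 gene called, dpy-5, had few reads, 17, 2, 21 and 1 with 5-Ph-IAA and 0, 0, 1 and 0 with ethanol. Neuronal markers (19 of 21 tested, 0 called, 1 at an unadjusted p under 0.05) summed to 516 to 559 CPM with 5-Ph-IAA and 537 to 576 CPM with ethanol. Intestinal markers had 9 log2 values above 0 and 12 below (median -0.017), and summed to 5026 ± 147 CPM with 5-Ph-IAA and 5269 ± 178 CPM with ethanol (SD, n = 4 each), lower in 4 of 4 pairs with groups that overlapped. The most abundant were asp-1, an aspartic protease, and acdh-1, an acyl-CoA dehydrogenase. acdh-1 had 894 ± 79.6 CPM with 5-Ph-IAA and 989 ± 50.8 CPM with ethanol (log2 fold change -0.14, edgeR adjusted p = 0.999, unadjusted p = 0.0223), lower in 4 of 4 pairs. asp-1 had 1231 ± 81.7 CPM with 5-Ph-IAA and 1306 ± 43.9 CPM with ethanol (log2 fold change -0.086, edgeR adjusted p = 0.999), also lower in 4 of 4 pairs. The scarcer marker ges-1 went the other way, higher in 4 of 4 pairs with groups that overlapped. It had 14.5 ± 2.07 CPM with 5-Ph-IAA and 12.3 ± 2.71 CPM with ethanol (log2 fold change 0.24, edgeR adjusted p = 0.999). Of all tested genes 7.17% were higher in 4 of 4 pairs. The share lower in 4 of 4 pairs was not counted, for acdh-1 and asp-1 or for pqm-1 above. Of 21 intestinal markers 0 passed without the block (3 at an unadjusted p under 0.05, beside 4.41% of all tested genes). With the block 1 passed, beside 0.732% of all tested genes. The marker that passed was cpr-1, a cysteine protease of the gut, at 25.4 ± 2.37 CPM with 5-Ph-IAA and 19.2 ± 5.10 CPM with ethanol (edgeR adjusted p = 0.0396 with the block, log2 fold change 0.42). Its CPM was higher with 5-Ph-IAA in 4 of 4 pairs, with groups that overlapped. Its blocked call ended with blocked DESeq2 (adjusted p = 0.714) and without replicate 1, 2 or 4 (0.182, 0.389 and 0.153). Without the block, DESeq2 and limma-voom called 0 genes of each of the lists above, against 29 and 13 of 12021 tested genes.

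The genes whose profile over the 8 libraries was most like that of the summed vitellogenins were tsn-1, imb-3, npp-21, copa-1 and hum-4. Likeness was the root mean square difference of centred log2 CPM among 7768 genes of at least 10 CPM. It was 0.0224 for tsn-1, 0.0300 for imb-3, 0.0329 for npp-21, 0.0333 for copa-1 and 0.0352 for hum-4, against a median of 0.152. A gene at the same level in every library would score 0.114. The vitellogenins, which make up the sum they are set against, lay between 0.0208 for vit-6 and 0.0848 for vit-3, rme-2 at 0.0645, unc-62 at 0.101 and ceh-60 at 0.199. The nuclease gene tsn-1 had 412, 411, 455 and 451 CPM with 5-Ph-IAA, and 441, 361, 454 and 476 CPM with ethanol, again lowest in ethanol replicate 2.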

How the data were processed

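RNA of whole worms was measured in 8 libraries, 4 per treatment. The authors deposited raw counts of reads, 1 file per library with 1 whole number a gene. The submitters' processing notes name FastQC (version 0.11.5), TopHat2, HTSeq and DESeq2 without a role. Genome build, annotation release and strand setting are not given there. Each file closes with 5 summary lines, which were not treated as genes. By these lines 47.7% to 48.1% of reads were assigned to no gene (no feature). Without the strand setting, it is unknown how many of those reads lie outside genes. A further 4.14% to 4.55% of reads had more than 1 alignment and 0.296% to 0.390% overlapped several genes. Between 7354710 and 10893322 reads fell in genes. Symbols, exon lengths and 1-based coordinates came from Ensembl release 115 (WBcel235). No sequence was used here.

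Genes passing filterByExpr were compared with edgeR 4.0.16 in R 4.3.3 (TMM factors 0.988 to 1.02, robust quasi-likelihood test, two-sided, Benjamini-Hochberg over 12021 genes). DESeq2 1.42.0 and limma-voom (limma 3.58.1) were alternatives. The SE is the absolute log2 fold change over the square root of F. The test was tried on simulated counts. The 12 replicate pairs differed by more than sampling noise (2.52 to 9.03 chi-square units per degree of freedom). Libraries of the same number deviated together (r = 0.147, 0.130, 0.100 and 0.144, other pairs -0.0990 to 0.0103), which met the bar of over 0.1 in every pair by a narrow margin, so the numbers were taken to pair the libraries. Members and lists were chosen with earlier results of these data known. Genes past the threshold in either fit were named, with some of the most abundant and the 5 genes nearest to the summed vitellogenins. Of the regulator, assembly and endocytosis lists the 2 largest differences of at least 10 CPM were named too. Of the marker lists such genes were not all described. They were ric-4 (log2 fold change -0.25) and sbt-1 (-0.12) of neurons, mlt-7 (-0.17) and nas-37 (-0.098) of the moult, and egg-2 (0.062) and chs-1 (-0.054) of oocytes. Of 202 list entries 1 symbol was not found.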

Additional observations from a re-analysis of the deposited data

Results flagged for a closer look

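Among 54 groups of 4 libraries examined, 5 held a library far from the other 3 by Dixon's test, which chance gives in about 5% of groups. Ethanol replicate 2 was low for vit-4, at 3391 CPM beside 4630 to 4846 CPM in the other 3 ethanol libraries, and for vit-5, at 19684 CPM beside 23837 to 24160 CPM. It was also low for the summed endocytosis genes, at 2626 CPM beside 2764 to 2781 CPM. Ethanol replicate 4 was high for the share of vit-2 in vitellogenin reads, at 26.7% beside 25.8% to 26.0%. 5-Ph-IAA replicate 4 was low for F59D8.3, at 122 CPM beside 375 to 411 CPM in the other 3 libraries of that group.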

How the results depend on the processing

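Over 193 log2 fold changes of members under alternatives, 0 passed the threshold (lowest adjusted p 0.269, vit-4 with the replicate block and without replicate 2) and 19 stood on the other side of 0. With the block vit-1 was at 0.0102, with limma-voom at 0.0113 and with blocked DESeq2 at 0.0106. With the block and without 1 pair vit-1 was at 0.0601, 0.0119 or 0.0404, vit-2 at -0.0179, vit-5 at 0.00684, vit-6 at -0.0520 and rme-2 at -0.00959. Leaving out 1 library moved vit-1 between -0.111 and 0.0593, vit-2 between -0.0298 and 0.1104, vit-3 between -0.187 and 0.0106, vit-6 between -0.0510 and 0.0713 and rme-2 between -0.0548 and 0.0588. The log2 ratio of mean vitellogenin shares, 0.0064, lay between -0.0623 and 0.0482 under the alternatives, so its sign was not settled. It was lowest without ethanol replicate 2. Each move was smaller than the SD between replicates (0.113). That SD includes the low ethanol replicate 2, so it is a wide bar and cannot show that the ratio was stable. Of all tested genes, 12 were called, against 88 with the replicate block, 29 with DESeq2, 62 with no filter, 3 with the stricter filter, 24 with blocked DESeq2, 82, 51, 78 and 92 with the block and without pair 1, 2, 3 or 4, and 6 to 19 without 1 library. Of the intestine list 0 passed, but 1 with the block and 1 with the block without replicate 3 (cpr-1). Of the moulting list 0 passed, but 1 of 22 with no filter (7 at an unadjusted p under 0.05), dpy-5, at 17, 2, 21 and 1 reads with 5-Ph-IAA and 0, 0, 1 and 0 with ethanol. The block changed no other call reported here. Summing vitellogenins by protein identity and searching promoters for motifs were planned and not run, since no sequences were used. Sums of vit-3, vit-4 and vit-5, and added ncRNA counts, were chosen after seeing the data. The cause of these shifts was not tested. For ceh-60, 61 to 118 reads per library limit precision.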
